A study of Mus musculus with 31 samples.

Results

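Potassium channel genes, the protein-coding genes whose GENCODE GRCm38 symbol starts with Kcn, were examined in the basolateral amygdala (BLA) of mice that carry human CYFIP1. A gene was taken as a member if at least 10 reads were counted in 7 or more of the 31 mice. Of 94 protein-coding Kcn genes in the tables, 71 met this rule, and they fell under 18 subfamily letters (Kcna to Kcnv). The letter is the one after Kcn, so that Kcnab counts under Kcna, Kcnip under Kcni and Kcnmb under Kcnm. The rule also gave the 17428 genes tested, so the members were 71 of 17428.

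Potassium channels set the resting potential of neurons and glia and end each action potential. Voltage-gated subunits (Kcna, Kcnb, Kcnc, Kcnd, Kcnh, Kcnq) open on depolarization, inward rectifiers (Kcnj) and leak channels (Kcnk) hold the membrane near rest, and Kcnm, Kcnn and Kcnt channels are gated by calcium or sodium. Subunits such as Kcng1, Kcnf1, Kcns and Kcnv1 form no channel of their own and modify channels built on Kcnb subunits, while Kcnab, Kcnip and Kcne proteins are accessory subunits. In the amygdala these channels govern how strongly projection neurons fire and adapt.

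CYFIP1 OE mice were made on C57BL/6N by pronuclear injection of a bacterial artificial chromosome that holds the human CYFIP1 gene, and their WT littermates served as controls. The lines were bred from transgenic progeny chosen for high expression or copy number of the transgene, 1 animal for each line, and the labels call the lines 1 and 3 where the study's text calls them 1 and 2. In line 1 there were 8 WT mice aged 59 to 61 days and 7 CYFIP1 OE mice aged 59 to 77 days. In line 3 there were 8 WT mice aged 58 to 60 days and 8 CYFIP1 OE mice aged 58 to 64 days. Both sexes were used in every group, with 3 males and 4 females among the CYFIP1 OE mice of line 1 and 4 of each sex in the other groups. Left and right BLA of a mouse, punched from a brain slice, were pooled as 1 sample. RNA was read with QuantSeq, which counts 1 read per transcript 3′ end, so that counts scaled to library size (CPM, with TMM normalization) do not grow with transcript length and may be set side by side between genes. Mouse Cyfip1 was at medians of 31.5 CPM in WT and 34.4 in CYFIP1 OE mice of line 1, and 35.8 and 32.6 in line 3, but reads of the human transgene need not map to it, so this does not check the labels.

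The libraries held 5286717 to 8685334 counts. A male CYFIP1 OE mouse of line 3 stood apart, with a standardized connectivity (how strongly its profile correlates with the other profiles) of -4.74, against -1.18 for the next lowest and 1.07 for the highest mouse. It is replicate 1 of its group, the study's own criterion would remove it, and it was kept here, with results given with and without it. In line 1 genotype cannot be told apart from what the sample names share, since 7 of its 8 WT mice have one name prefix, and the 4 mice aged 77 days were all CYFIP1 OE mice of that line. Both genotypes were present in 5 of the 10 groups of mice with one prefix, which held 9 WT and 9 CYFIP1 OE mice, 16 of them from line 3. BLA projection neuron markers were measured in every mouse, at summed levels of 520.1 to 3717 CPM over 6 genes. So were 6 of 7 markers of projection neurons of the striatum, which lies next to the BLA, at 184.1 to 4194 CPM. In tissue of mixed cells, fewer cells of a type and less RNA per cell cannot be told apart.

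The promoters of members that rose and fell together across mice, described further on, are shown first. They are the last 100 bases before the RefSeq transcript start (GRCm38.p6), 5′ to 3′ on the gene's strand, for the 5 members of the most strongly related pairs that have a single start in the table. Kcnj4, Kcnip2, Kcna4 and Kcnd2 moved with one another and Kcnd3 moved against them. Capitals mark GC boxes, the letters GGGCGG on either strand.
Kcnj4, chr15:79505242-79505341, minus strand: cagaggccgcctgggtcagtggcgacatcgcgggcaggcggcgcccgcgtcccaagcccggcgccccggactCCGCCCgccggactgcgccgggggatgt
Kcnip2, chr19:45816064-45816163, minus strand: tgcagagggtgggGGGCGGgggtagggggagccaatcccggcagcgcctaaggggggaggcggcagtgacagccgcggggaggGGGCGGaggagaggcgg
Kcna4, chr2:107290489-107290588, plus strand: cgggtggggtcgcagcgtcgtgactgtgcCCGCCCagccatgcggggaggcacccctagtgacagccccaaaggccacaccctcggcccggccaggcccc
Kcnd2, chr6:21215246-21215345, plus strand: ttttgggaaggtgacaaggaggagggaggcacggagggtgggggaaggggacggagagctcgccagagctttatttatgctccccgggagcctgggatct
Kcnd3, chr3:105451790-105451889, plus strand: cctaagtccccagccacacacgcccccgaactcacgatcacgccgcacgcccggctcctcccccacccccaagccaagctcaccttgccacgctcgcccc
All 5 windows were rich in G and C, from 61.0% in Kcnd2 to 80.0% in Kcnj4, against a median of 55.0% over 32851 promoters of the table and 61.0% over those of the 50 members it lists. A GC box was present in 24 of the 50 members (48.0%), against 27.3% of the 27025 genes of the table. A TATA box (TATAAA) was in none of the 50 and in 6.57% of all genes, and a cAMP response element (TGACGTCA) was in none of the 50 and in 1.36% of all genes. The E-box CACGTG was found in Kcnab1, Kcnh4 and Kcnj2 alone, 6.0% of the listed members against 3.7% of all genes, and the MEF2 core TATTTATA was in none, against 0.803%. Both strands were searched, and the MEF2 core holds a TATA box when read on the other strand.

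The members together took 2417 ± 327 CPM (SD, n = 31 mice), with a range of 1746 to 2930. By group the median sum was 2460 CPM in WT and 2231 in CYFIP1 OE mice of line 1, and 2316 and 2638 in line 3, with overlapping ranges. The median member was at 16.2 CPM and the median tested gene at 9.32 CPM. There were 6 members over 100 CPM, among them Kcnd2, Kcnip2, Kcnj4 and Kcnq3. Another 34 were between 10 and 100, 30 were between 1 and 10, and only Kcnj5 was under 1. The 10 highest members held 58.8% of the summed Kcn level.

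Among voltage-gated pore subunits, Kcnq3, a subunit of the M-type channels that restrain repetitive firing, was at 139.4 ± 28.6 CPM (SD, n = 31). Kcnq5 was at 30.5 CPM, and the 4 Kcnq genes together made up 18.4% of the Kcn level, the highest share of any letter. Kcnd2, the main neuronal A-type subunit of the Kv4 family, was at 197.8 ± 55.4 CPM, while its relatives Kcnd3 and Kcnd1 were at 20.97 and 7.42 CPM. Kcnb2, a delayed rectifier, was at 19.4 CPM. The Kv1 subunits ran from Kcna2 at 99.3 CPM over Kcna6, Kcna1 and Kcna4 to Kcna5 at 11.9 CPM. The Kv3 subunits, known from fast-spiking cells, included Kcnc1 at 59.8, Kcnc4 at 22.1 and Kcnc2 at 16.2 CPM. Kcnh1, of the ether-a-go-go family, led Kcnh3, Kcnh7, Kcnh2, Kcnh4 and Kcnh5 with 39.1 CPM, and Kcnh5 was at 1.52 CPM.

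Among the silent subunits Kcnf1 was at 23.6 CPM, Kcng1 at 17.0 ± 7.43 CPM, and Kcnv1 at 14.0 CPM. Kcns2, Kcns1, Kcng2 and Kcns3 lay between 5.48 and 1.17 CPM. Kcng1 (chromosome 2, 168260117 to 168281736, minus strand) thus stood above 63.5% of all tested genes, and at least 61 reads were counted in every mouse.

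Accessory subunits were partly as high as the pores. Kcnip2, a calcium-binding partner of Kv4 channels, was at 172.6 ± 58.2 CPM, and Kcnip4, Kcnip3 and Kcnip1 were at 21.8, 20.7 and 7.73 CPM. The Kv1 beta subunits Kcnab1, Kcnab2 and Kcnab3 were at 80.3, 78.7 and 15.5 CPM. Of the single-pass Kcne subunits, Kcne1l was at 9.12 CPM and Kcne2 at 3.16 ± 5.12 CPM, the highest spread relative to the mean (162.4%) of all members.

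Inward rectifiers were led by Kcnj4, the strong rectifier Kir2.3, at 154.0 ± 51.3 CPM. Kcnj10, the Kir4.1 channel of glia, was at 37.7 CPM, and the G-protein-gated subunits Kcnj3, Kcnj9, Kcnj6 and Kcnj5 were at 32.1, 28.5, 1.06 and 0.875 CPM. Kcnj11, the pore of ATP-sensitive channels, was at 22.7 CPM and Kcnj16 at 20.3 CPM. Kcnj2, Kcnj1, Kcnj12, Kcnj8, Kcnj15 and Kcnj14 lay between 7.25 and 1.17 CPM. Among leak channels Kcnk2, the mechanosensitive TREK-1, was at 68.5 CPM and Kcnk1 at 43.5 CPM, with Kcnk6, Kcnk3, Kcnk13, Kcnk4 and Kcnk10 between 8.66 and 1.30 CPM. Kcnma1, the BK channel, and its neuronal beta subunit Kcnmb4 were at 74.5 and 43.6 CPM, and Kcnmb2 was at 1.89 CPM. The sodium-activated Kcnt1 was at 28.1 CPM and Kcnt2 at 4.09, the small-conductance subunits Kcnn3, Kcnn2 and Kcnn1 were at 11.03, 7.39 and 4.53, the intermediate-conductance Kcnn4 was at 1.79, and Kcnu1, a channel best known from sperm, was at 2.37 CPM.

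**Figure D1:**
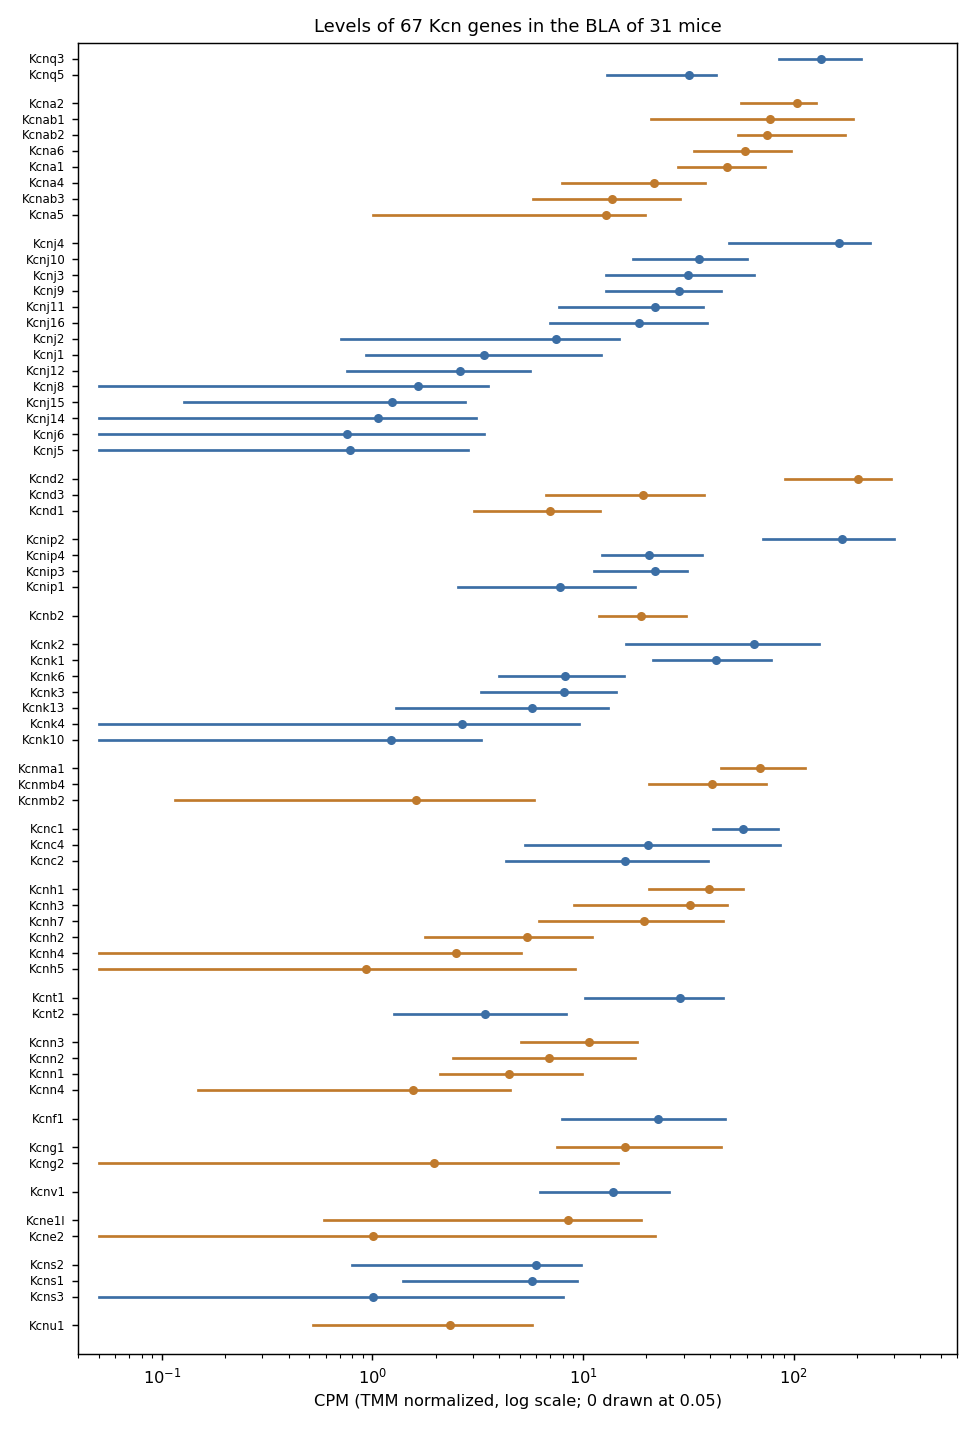
The median (point) and the lowest to highest value (line) over 31 mice of 67 members, in CPM on a log scale, with genes grouped by subfamily letter in order of summed level and 0 drawn at 0.05. Kcnd2 reached a median of 202.5 CPM, and Kcnj5 a median of 0.784 CPM.

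The filter lay in the range of few reads. Kcnj5 was just inside, with 10 reads in 7 mice and at most 22 reads, followed by Kcns3 with 8 mice. Kcng4, Kcnj13 and Kcnk12 were just outside with 6 mice each. The other Kcn genes below the filter were Kcna3, Kcna7, Kcna10, Kcne1, Kcne3, Kcne4, Kcng3, Kcnh6, Kcnh8, Kcnk5, Kcnk7, Kcnk9, Kcnk15, Kcnk16, Kcnk18, Kcnmb1, Kcnmb3, Kcnq1, Kcnrg and Kcnv2, which makes 23 in all. In 48 members at least 10 reads were counted in every mouse.

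Genotype over both lines was tested first, which asks whether channel levels in the BLA differ with overexpression. Kcng1 and Kcnj14 rose and Kcne2 fell at an unadjusted p under 0.05, which is 3 of 71 members. The share of all 17428 genes called was 2.27% for higher and 2.04% for lower levels in CYFIP1 OE mice, so that 2 and 1 of 71 members lie near the background. Of the members 39 were higher and the median log2 difference was 0.01. At the stricter unadjusted p under 0.005, which the study used, 1 member (Kcng1) was higher, beside 0.115% of all genes higher and 0.178% lower. No member passed an adjusted p under 0.05 with edgeR's quasi-likelihood test, which called 0.0% of all genes, and none did with DESeq2, which put 3 members and 4.68% of all genes at an unadjusted p under 0.05 and no gene past the adjusted threshold.

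Kcng1, the silent subunit, ranged in WT mice of line 1 from 10.4 to 17.0 CPM with a median of 12.2, and in CYFIP1 OE mice of that line from 17.0 to 45.3 CPM with a median of 18.5. These groups met at their edges, the lowest CYFIP1 OE mouse lying at 16.96 CPM and the highest WT mouse at 17.03 CPM. In line 3 the WT mice ranged from 7.51 to 24.2 CPM with a median of 11.4, and the CYFIP1 OE mice from 11.6 to 29.8 CPM with a median of 18.9. Here the groups overlapped widely, although both line 3 medians were close to those of line 1. The log2 difference was 0.64 ± 0.17 (SE) over both lines with an unadjusted p = 0.000577 (edgeR, n = 16 WT and n = 15 CYFIP1 OE, adjusted p = 0.999). By line it was 0.83 ± 0.24 in line 1 and 0.45 ± 0.23 in line 3 (edgeR, adjusted p = 1.00 and adjusted p = 0.646), and the unadjusted p was under 0.05 in line 1 alone.

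Kcng1 was lifted in part by 1 mouse, replicate 5 of the CYFIP1 OE mice of line 1, at 45.3 CPM. Without that mouse the difference was 0.50 over both lines, 0.57 in line 1 and 0.44 in line 3, each with an unadjusted p under 0.05. The lines share one estimate of the spread, and the line 3 difference was 0.45 with that mouse. In line 3 Kcng1 passed with 5 surrogate variables, with the BLA score, and with the striatal and oligodendrocyte scores. With line 3 fitted alone the difference was 0.44, and with the name prefix as a further term, added after the data were seen, 0.36 ± 0.27, and neither passed. Without the mice aged 77 days it was 0.47 over both lines, which passed, and 0.51 in line 1, which did not. Among the 18 mice whose prefix occurs in both genotypes it was 0.37 ± 0.25, and the call was lost. Kcng1 also moved with BLA projection neuron markers over mice, and with their score as a covariate, chosen after the data were seen, the difference was 0.64 ± 0.15 and passed. Without the mouse of low connectivity it was 0.63 and passed.

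Kcnj14, the inward rectifier Kir2.4, was near the floor of the assay, with 267 reads over all mice and 24 at most in 1 mouse. In line 1 the WT mice ranged from 0.222 to 1.09 CPM (median 0.560) and the CYFIP1 OE mice from 1.06 to 3.09 CPM (median 1.70). In line 3 the WT mice ranged from 0.147 to 1.95 CPM (median 1.02) and the CYFIP1 OE mice from 0 to 3.12 CPM (median 1.21). The groups met at their edges in line 1 and overlapped widely in line 3. The log2 difference was 1.04 ± 0.39 over both lines (unadjusted p = 0.0124, n = 16 WT and n = 15 CYFIP1 OE). In line 1 it was 1.67 ± 0.56 (adjusted p = 1.00 with edgeR), and in line 3 it was 0.46 ± 0.53. Among the 18 mice whose prefix occurs in both genotypes it was 0.14 ± 0.71 and did not pass.

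Kcne2, an accessory subunit that is abundant in choroid plexus epithelium, was at 0 in 8 of 31 mice. It ranged from 0 to 13.7 CPM (median 0.872) in WT and from 0 to 2.79 CPM (median 1.13) in CYFIP1 OE mice of line 1. In line 3 it ranged from 0 to 21.9 CPM (median 4.36) in WT and from 0 to 6.09 CPM (median 0.0673) in CYFIP1 OE mice. Every group thus held mice with none, and a few mice carried most of the reads. The log2 difference over both lines was -1.92 ± 0.78 (unadjusted p = 0.0197, n = 16 WT and n = 15 CYFIP1 OE). Choroid plexus markers varied alongside it, at summed levels of 29.6 to 8536 CPM over 5 genes, of which Clic6 and Kl were lower in CYFIP1 OE mice at p under 0.05. With the choroid plexus score as a covariate, added after the data were seen, Kcne2 differed by -0.76 ± 0.48 and did not pass.

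**Figure D2:**
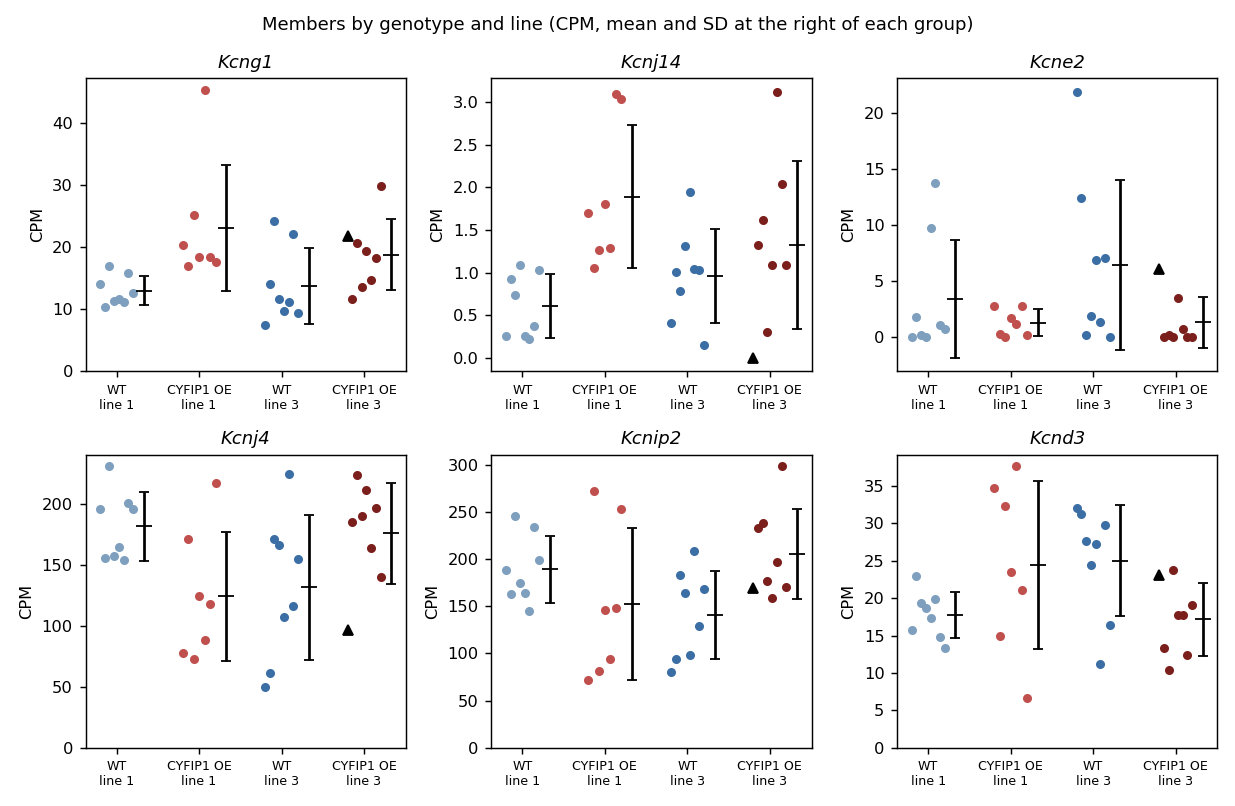
CPM of 6 members by genotype and line, 1 point per mouse, with mean and SD at the right of each group and the mouse of low connectivity as a black triangle. Kcng1 of line 1 barely overlaps between genotypes, with 1 mouse at 45.3 CPM, and Kcnj4 is lower in CYFIP1 OE mice of line 1 but not of line 3.

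The other members over both lines did not pass. Among those with the smallest p were Kcnj16 at 0.28 ± 0.17 and Kcnj1 at 0.36 ± 0.26 on the higher side. On the lower side they were Kcnip3 at -0.23 ± 0.13, Kcna1 at -0.15 ± 0.11, Kcnn2 at -0.22 ± 0.20 and Kcnj12, the Kir2.2 rectifier, at -0.25 ± 0.27.

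In line 1 alone, 2 members were higher and 2 lower at p under 0.05, beside 2.15% of all genes higher and 1.81% lower, and the adjusted rule called 0.0% of genes. Kcng1 and Kcnj14 rose, and the 2 that fell were Kcnj4 and Kcns2. Kcnj4 was between 153.8 and 230.8 CPM (median 179.6) in WT and between 73.0 and 216.4 CPM (median 117.5) in CYFIP1 OE mice, a log2 difference of -0.61 ± 0.24 (adjusted p = 1.00). All 8 WT mice were above the CYFIP1 OE median. Kcns2, a silent subunit, was between 5.16 and 9.82 CPM (median 5.95) in WT and between 1.18 and 6.91 CPM (median 4.30) in CYFIP1 OE mice, with -0.84 ± 0.38 (adjusted p = 1.00). Kcnj2 at -0.74, Kcnd2 at -0.37 and Kcnab1 at -0.61 were next on the lower side, and Kcnd3 at 0.46, Kcnk4 at 1.01 and Kcnh7 at 0.46 on the higher side, and none of these 6 passed. The median of the 6 striatal markers was -0.81 in this line, and none of the 6 passed. Without the mice aged 77 days Kcnj4 was at -0.41 and did not pass.

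In line 3 alone, 5 members were higher and 2 lower at p under 0.05, beside 4.29% and 3.66% of all genes, with 0.0% at the adjusted rule. The 5 higher members included Kcne1l at 0.87 ± 0.34, Kcnq3 at 0.34 ± 0.14, Kcnip2 at 0.56 ± 0.22 and Kcnk2 at 0.74 ± 0.33. Their adjusted p by edgeR's test ran from 0.552 to 0.591. Kcnip2 ranged from 79.8 to 208.2 CPM (median 146.6) in WT and from 159.3 to 299.3 CPM (median 186.8) in CYFIP1 OE mice. The groups overlapped, and the 4 lowest values were all WT. Kcnd3 fell, from 11.3 to 31.98 CPM (median 27.4) in WT to 10.4 to 23.8 CPM (median 17.7), a log2 difference of -0.53 ± 0.23 (adjusted p = 0.583). Kcne2 fell by 2.34 on the log2 scale (adjusted p = 0.591). Leaving out 1 mouse gave Kcne2 differences of -3.60 to -1.57 and lost its call in 8 of 31 cases, DESeq2 did not call it, and with the choroid plexus score it was at -1.33 and still passed. The call of Kcnk2 was lost in 6 of the 31 cases. Next were Kcnj6 at -1.83, Kcnc2 at -0.52 and Kcng2 at -1.13, which did not pass. DESeq2 put 8 members and 8.52% of all genes at p under 0.05 here, and 6 members and 4.38% in line 1. Past its adjusted threshold were 4 genes in line 3 and 1 in line 1, and no member.

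Mice of one name prefix were unevenly split between the genotypes of line 3. The 16 mice fell under 4 prefixes, with 3 WT and 1 CYFIP1 OE mice under one and 2 WT and 4 CYFIP1 OE mice under another. WT replicates 1 and 2, both under the former, held the lowest Kcnip2 values of line 3 (79.8 and 94.0 CPM) and the highest Kcnd3 values (31.98 and 31.2 CPM). With the prefix as a term in a fit of line 3 alone, an alternative added after the data were seen, 2 of 71 members passed (2.82%, beside 5.44% of all genes), and none of the 7 was among them. The 2 were Kcns3 at 2.47 ± 0.76 and Kcnip3 at -0.42 ± 0.18. Kcnip2 was then at 0.44 ± 0.22, Kcne1l at 0.96 ± 0.49, Kcnq3 at 0.24 ± 0.15 and Kcnk2 at 0.43 ± 0.31, with Kcnd3 at -0.41 ± 0.23 and Kcne2 at -2.01 ± 1.03. Each of these 6 kept its sign. Without the prefix, line 3 alone gave 8 members (11.3%, beside 6.32% of all genes), including all 7. With the striatal and oligodendrocyte scores as covariates, likewise added, 8 members passed in line 3 (11.3%, beside 7.87% of all genes), and of the 7 only Kcne1l and Kcnip2 were among them.

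The mouse of low connectivity belongs to the CYFIP1 OE mice of line 3. Without it 12 members passed in line 3 (16.9%, beside 9.05% of all genes), of which 6 were among the 7 above, and Kcnab1, Kcnd2, Kcng2, Kcnj4, Kcnj6 and Kcnt1 were added. Without replicate 7 of the same group 1 member passed, and the share of all genes in that fit is not given here. The median of the 6 striatal markers was 0.69 in line 3, again with none of the 6 passing. Kcnip2 was at -0.36 in line 1 and 0.56 in line 3, Kcnk2 at -0.40 and 0.74, and Kcnd3 at 0.46 and -0.53, and none of the 3 passed in line 1.

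The difference of the genotype effects between the lines was tested as an interaction. It passed for 14 of 71 members, 9 with a higher effect in line 3 and 5 with a lower one (19.7% of members), beside 4.03% of all genes higher and 4.07% lower. Leaving out 1 mouse at a time gave 9 to 17 members, and the share of all genes in most of those fits is not given here. At p under 0.005 it passed for 1 member, Kcnj4, beside 0.361% and 0.482% of all genes, and for 0.0% of genes after adjustment. No member had an adjusted p under 0.05 with edgeR or with DESeq2, which put 16 members and 8.67% of all genes at an unadjusted p under 0.05 and 2 genes past its adjusted threshold.

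The 9 higher ones were Kcnj4 (1.02 ± 0.33, adjusted p = 0.534), Kcnip2 (0.92 ± 0.33, adjusted p = 0.534), Kcnq3, Kcnd2, Kcnab1, Kcnj2, Kcnk2, Kcns2 and Kcne1l. The 5 lower ones were Kcnd3 (-1.00 ± 0.34, adjusted p = 0.534), Kcng2, Kcnj6, Kcnc2 and Kcnj3, the last of which encodes a G-protein-gated rectifier with Kcnj6. Kv4 channel genes were on both sides, with Kcnd2 at 0.69 ± 0.28 and its partner Kcnip2 higher and Kcnd3 lower. Kcng1 was not among them, and its interaction without the mouse at 45.3 CPM was -0.13 ± 0.30.

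All 6 measured striatal markers, among them Adora2a, Drd1, Pde10a, Ppp1r1b and Rgs9, passed the interaction in the same direction, with a median of 1.52. Of the 80 measured genes on all marker lists, 11 passed higher and 4 lower. With the striatal and oligodendrocyte scores in the model, an alternative added after the data were seen, 4 of 71 members passed the interaction (5.63%, beside 5.24% of all genes), and of the 14 only Kcnj4 was still among them, at 0.46 ± 0.18. The others were Kcnj14, Kcnj16 and Kcnv1. Without the mice aged 77 days 5 members passed (7.04%, beside 5.38% of all genes). Without the mouse of low connectivity 17 passed (23.9%, beside 10.4% of all genes), including all 14.

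**Figure D3:**
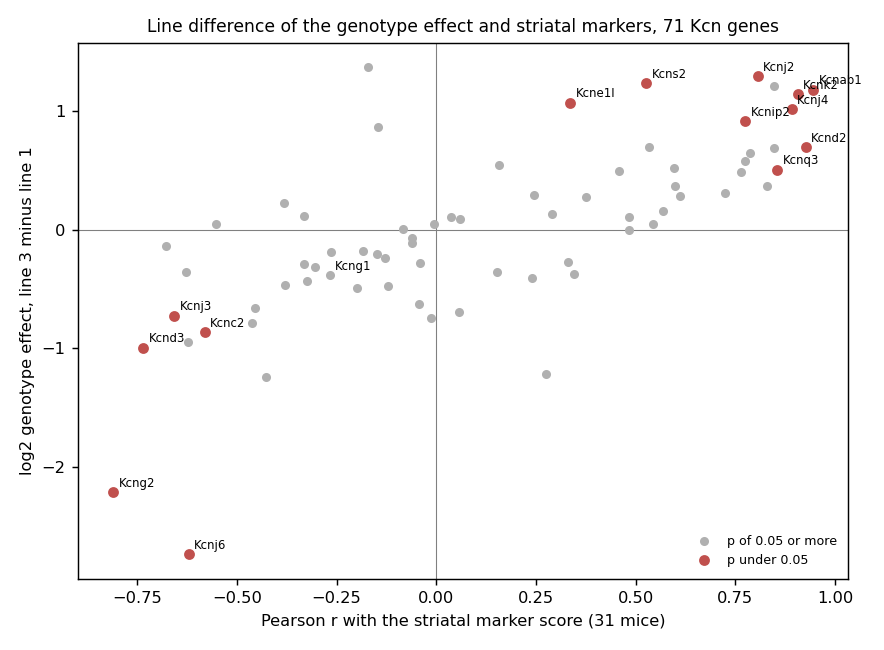
Each point is 1 of the 71 members, with its Pearson r to the striatal marker score over 31 mice on the horizontal axis and the log2 genotype effect of line 3 minus that of line 1 on the vertical axis, red where p is under 0.05. Both axes use the same mice, and the 8 red points with r over 0.5 lie above 0 while the 5 with r under -0.5 lie below it.

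Members differed widely between individual mice, and many did so together. Over the 2485 pairs of members, with sex, line and genotype removed from log2 CPM, the median r was 0.03 against -0.0015 over all pairs of tested genes. Pairs with r of at least 0.5 made up 9.58% of member pairs and 2.04% of all pairs, and pairs with r under -0.5 made up 5.43% and 1.74%. Since genes with few reads correlate less, the same was taken for genes with 10 reads in every mouse, where 14.7% of 1128 member pairs and 3.44% of pairs of 10877 genes had r of at least 0.5. Sharing a subfamily letter made little difference, with a median r of 0.03 over 192 pairs of one letter and 0.04 over 2293 pairs of different letters.

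The highest r was that of Kcnab1, a Kv1 beta subunit, with Kcnk2, the leak channel TREK-1 (r = 0.93, rho = 0.93, permutation p = 1e-05 for both, the smallest that 100000 resamples allow). After adjustment over 2485 pairs the p was 0.00035 for r and 0.000529 for rho. The r was 0.90 without the 2 mice farthest from the median of Kcnab1, 0.94 in line 1 and 0.93 in line 3. Next came Kcnab1 with Kcnd2 (0.91), Kcnj4 with Kcnk2 (0.89), Kcnip2 with Kcnj4 (0.89), Kcna4 with Kcnk2 (0.88), Kcnd2 with Kcnk2 (0.88), Kcnd2 with Kcnq3 (0.87) and Kcnip2 with Kcnk2 (0.87). These 7 members, Kcnab1, Kcnk2, Kcnd2, Kcnj4, Kcnip2, Kcna4 and Kcnq3, thus rose and fell as a set, across A-type, inward rectifier, leak and M-type genes. Each of the 7 also went with the striatal marker score. Kcnab1 was at r = 0.95 with it, Kcnd2 at 0.93, Kcnk2 at 0.91, Kcnj4 at 0.89, Kcnq3 at 0.86, Kcna4 at 0.85 and Kcnip2 at 0.78. For these 8 pairs r was between 0.82 and 0.90 without the 2 farthest mice, and between 0.80 and 0.95 within each line.

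The lowest r values were those of Kcnd3 with Kcnk2 (-0.83) and with Kcnip2 (-0.82), and of Kcng2, a silent subunit, with Kcnab1 (-0.80) and with Kcnk2 (-0.78). For r all 4 had a permutation p = 1e-05 and an adjusted p of 0.00035, and within lines r was between -0.72 and -0.88. Kcnd2 and Kcnd3, which encode A-type subunits of one family, therefore stood on opposite sides. In all, 444 pairs passed an adjusted p under 0.05, 282 with positive and 162 with negative r, and 333 of them passed with rho as well. Kcnab1 and Kcnd2 were each in 32 of these pairs, the most of any member.

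**Figure D4:**
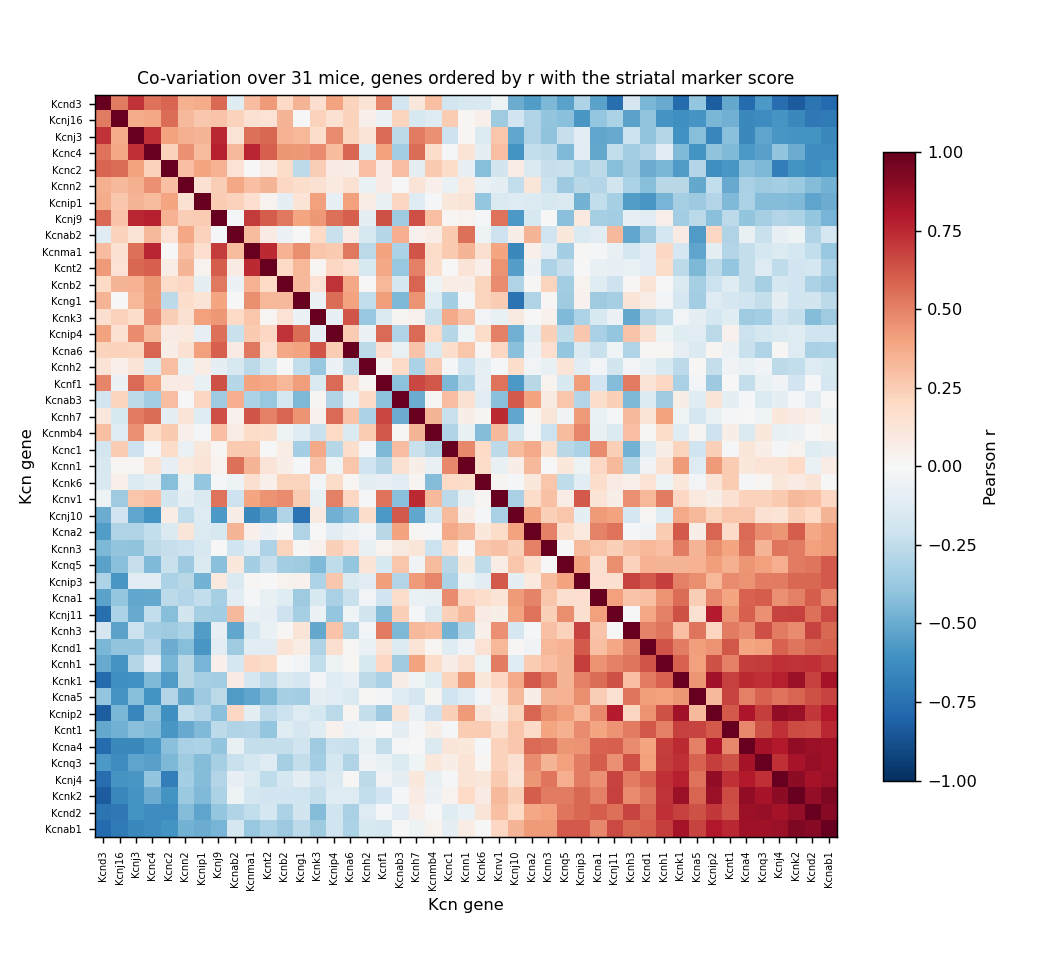
Pearson r over 31 mice between 45 members with 10 reads in every mouse, with genes ordered on both axes by r to the striatal marker score and colour from blue (-1) to red (1). Kcnab1, Kcnd2, Kcnk2, Kcnj4 and Kcnq3 lie in the red block at the lower right, and Kcnd3 in the first row is blue against them (r = -0.83 with Kcnk2).

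Marker scores, the mean of standardized markers of a cell type, were set against the members, with pairs chosen by where each channel is known to occur. Of 21 relations chosen from textbook knowledge 8 passed an adjusted p under 0.05, and 1 further chosen relation was not computed. Since 23 of all 71 members went with the striatal score, passing with that score does not set a channel apart. Kcnab1 with striatal projection neurons was the highest (r = 0.95, rho = 0.95, adjusted permutation p = 3.5e-05 over the 21), followed by Kcnh4 (r = 0.85), Kcna4 (r = 0.85) and Kcnip2 (r = 0.78) with the same score. Kcne2 went with choroid plexus (r = 0.89, rho = 0.83), with 0.87 after the 2 farthest mice were left out. These relations held in both lines, at r between 0.74 and 0.96.

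Kcnj10, a channel of both glial types, went more closely with oligodendrocytes (r = 0.80, rho = 0.76) than with astrocytes (r = 0.50, rho = 0.54, adjusted p = 0.0125). The difference of those r values was not tested. Kcnj10 also went with the parvalbumin interneuron score (r = 0.70, rho = 0.70), so an r with a score does not place a channel in a cell type. Kcng1 went with BLA projection neurons (r = 0.49, rho = 0.49, adjusted p = 0.0144), at 0.63 in line 1 and 0.38 in line 3, and at 0.40 without the 2 farthest mice. With no covariate removed that r was 0.31 and did not pass. Kcnk13, the microglial channel THIK-1, missed the threshold with microglia (r = 0.40, adjusted p = 0.0576) and passed without the mouse of low connectivity (r = 0.51, adjusted p = 0.0117). With all mice Kcnk13 was more strongly related to other scores. It was at r = 0.62 with oligodendrocytes, 0.57 with parvalbumin interneurons and -0.70 with BLA projection neurons. The 12 other relations did not pass, among them Kcnc1, Kcnc2 and Kcns3 with parvalbumin cells (r = 0.13, -0.36 and 0.06), Kcna1 with oligodendrocytes (0.28), Kcnj8 with mural cells (0.19), Kcnn4 with microglia (0.08), and Kcnj16 and Kcnk1 with astrocytes (0.27 and -0.23). Kcng1 with neurons (0.18) and with GABAergic interneurons (0.32) and Kcnc2 with the latter (-0.19) did not pass either.

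**Figure D5:**
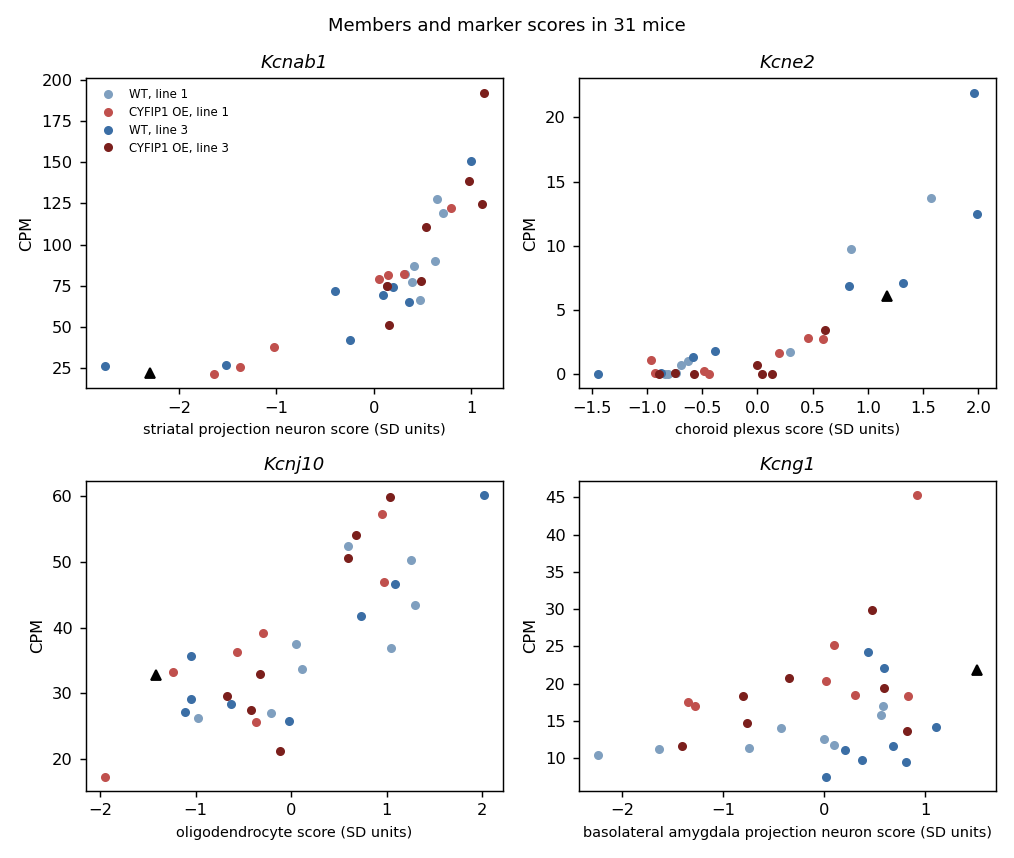
CPM of Kcnab1, Kcne2, Kcnj10 and Kcng1 against the score of 1 marker list each (SD units) in 31 mice, coloured by group, with the mouse of low connectivity as a black triangle. Kcnab1 climbs with the striatal score in all groups (r = 0.95 after sex, line and genotype are removed), and Kcng1 scatters widely around the BLA projection neuron score (r = 0.49).

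Over all 994 relations of 71 members with 14 marker lists, the striatal score had the most, with 23 positive and 9 negative at an adjusted p under 0.05. Of the 23 positive members 22 had a higher genotype effect in line 3 than in line 1 (median 0.58), and of the 9 negative ones 1 did (median -0.87). The score and the effects come from the same mice, so these counts are a description. The BLA projection neuron score had 11 positive members, led by Kcnc4 (r = 0.88), Kcnj9 (r = 0.82) and Kcnma1 (r = 0.81), and 6 negative ones. Kcnma1 went against the oligodendrocyte score (r = -0.82), and the choroid plexus score had 4 positive and 17 negative members. No member was related to the endothelial score at that threshold. How many of all tested genes were related to each score is not given here. Whether members went with a score more often than other genes can therefore not be read from these counts.

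When the striatal and oligodendrocyte scores were removed as well, 78 member pairs (3.14%) had r of at least 0.5, against 238 before. The share over all pairs of tested genes after this removal is not given here. The fall therefore does not set the members apart from other genes. Kcnab1 with Kcnk2 was then at 0.56, Kcnip2 with Kcnj4 at 0.67 and Kcnd2 with Kcnk2 at 0.18. Kcnab1 with Kcnd2 was at 0.31, Kcnj4 with Kcnk2 at 0.37 and Kcnd2 with Kcnq3 at 0.33. Kcna4 with Kcnk2 was at 0.53 and Kcnip2 with Kcnk2 at 0.60. Kcnd3 with Kcnk2 and with Kcnip2 were at -0.68 and -0.67, and Kcng2 with Kcnab1 and with Kcnk2 at -0.18 and -0.27.

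Among members Kcng1 went most with Kcnip4 (r = 0.56, rho = 0.43, adjusted p = 0.00928 for r), Kcnma1 (0.47), Kcnh7 (0.45), Kcnc4 (0.44) and Kcnf1 (0.42), and of the latter 4 Kcnma1 alone passed with r (adjusted p = 0.0472). With rho Kcnip4 and Kcnma1 did not pass (adjusted p = 0.0849 and 0.0936) while Kcnh7 and Kcnc4 did (0.0235 and 0.0216). It went most strongly against Kcnj10 (r = -0.74, rho = -0.73, permutation p = 1e-05, adjusted p = 0.00035), with -0.69 without the 2 farthest mice, -0.85 in line 1 and -0.68 in line 3. With the striatal and oligodendrocyte scores removed as well, r was 0.41 with Kcnip4, 0.00295 with Kcnma1, 0.13 with Kcnh7, 0.0128 with Kcnc4, 0.13 with Kcnf1 and -0.59 with Kcnj10. Of all tested genes those most like it over 31 mice were Lmo3 (r = 0.79), Tmem35a (0.73), 1810008I18Rik (0.69), Svop (0.68) and Lix1 (0.68). Lmo3, a transcriptional regulator of the LIM-only family, was at 0.80 in line 1 and 0.79 in line 3.

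Some members are neighbours on a chromosome, and 9 such pairs lie within 300000 bases. Kcnj9 and Kcnj10, 11891 bases apart on chromosome 1, moved in opposite directions (r = -0.57, rho = -0.55, adjusted p = 0.00815 over the 2485 pairs), and so did Kcnj2 and Kcnj16, 38195 bases apart on chromosome 11 (r = -0.58, rho = -0.57, adjusted p = 0.00647). Kcnj9 is known from neurons, and Kcnj10 and Kcnj16 from glia, but whether cell type bears on these pairs was not tested. With the striatal score Kcnj2 and Kcnj16 were at r = 0.81 and -0.68, and Kcnj9 and Kcnj10 at -0.38 and 0.29. Kcnj9 and Kcnj10 stood further apart with the BLA projection neuron score, at r = 0.82 and -0.65, and Kcnj10 was at 0.80 with the oligodendrocyte score. The Kcna1, Kcna5 and Kcna6 cluster on chromosome 6 gave r from -0.22 to 0.25 with none passing.

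Lines and sexes were compared last. Among WT mice 4 members were higher and 3 lower in line 3 than in line 1, beside 2.56% and 1.86% of all genes, with 0.0% at the adjusted rule. Kcnk4, the leak channel TRAAK, differed most at 2.10 ± 0.51 (adjusted p = 1.00 with edgeR), but its 3′ end overlaps Catsperz on the same strand, so reads of the pair cannot be told apart there. Kcng2 was higher at 1.67 ± 0.67 and Kcnt1 lower at -0.56 ± 0.23. The other 4 were Kcnd3 and Kcnj3 on the higher and Kcne1l and Kcnj4 on the lower side, and the same WT mice enter the interaction. No name prefix occurs in both lines, so line cannot be told apart from prefix. Of the 80 measured marker genes 5 were higher and 5 lower. Among the higher were 3 BLA projection neuron markers, Neurod2, Neurod6 and Rspo2 (list median 1.07). The striatal markers had a median of -0.64, with none passing. Whether tissue content bears on these members was not tested. DESeq2 put 8 members and 4.92% of all genes at p under 0.05 here, and 3 members and 5.23% by sex, with no member past its adjusted threshold, which 12 genes passed by sex and none here. By sex 2 members were higher and 2 lower in females, beside 1.61% and 3.02% of all genes, and the adjusted rule called 0.0631% of genes but no member. Kcnj1 at -0.65 ± 0.26 and Kcnc1 at -0.23 ± 0.09 were lower in females, and Kcnip3 at 0.31 ± 0.13 and Kcnab1 at 0.53 ± 0.26 higher.

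Genes that work with these channels but carry other names were counted as lists, 29 measured genes in all. Over both lines 2 were higher and 2 lower at p under 0.05, beside 2.27% and 2.04% of all genes. Dpp6, an accessory subunit of Kv4 channels, differed by 0.36 ± 0.15, and Amigo1, an adhesion protein found with neuronal potassium channels, by 0.40 ± 0.19. Slc12a7 at -0.97 and Slc12a2 at -0.37, both cation chloride cotransporters, were lower. In line 3 Dpp6 (0.54), Amigo1 (0.58) and Slc12a7 (-1.32) passed. Dpp6 and Dpp10 together were at 220.2 CPM in the mouse of low connectivity, against a median of 92.9 CPM in its group and at most 141.1 CPM in the other groups. Without that mouse Dpp6 was at 0.14 ± 0.09 over both lines and 0.15 ± 0.13 in line 3, and Amigo1 at 0.22 ± 0.16 and 0.26 ± 0.23, and neither passed, nor did Slc12a2 over both lines (-0.35 ± 0.18). Slc12a7 then passed in both, at -1.05 and -1.50. With all mice, choroid plexus markers were lower in the same comparisons at p under 0.05. They were Clic6 (-0.83) and Kl (-1.08) over both lines, and Kl (-1.45) and Prlr (-1.33) in line 3. Whether Slc12a7 and Slc12a2 varied with these markers over mice was not tested. In line 1, 1 of the 29 was higher and 0 were lower at p under 0.05, beside 2.15% and 1.81% of all genes. The interaction passed for 1 of the 29, with a lower effect in line 3, beside 4.03% of all genes higher and 4.07% lower. None of the 6 Na,K-ATPase subunits, 2 sulfonylurea receptors and the 1 measured BK gamma subunit passed in any genotype comparison.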

How the data were processed

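RNA from pooled left and right BLA of 31 mice (16 WT, 15 CYFIP1 OE) was sequenced with QuantSeq. Per the submitters' processing notes in the labels the authors mapped reads to GRCm38 with STAR and quantified them with Salmon, with Picard and MultiQC for quality metrics, and deposited expected counts (estimated counts, 26.4% of values not whole) with no normalization or filter. Versions and the strand setting of the counting are not given in the sources used here. Of 48709 gene identifiers 48349 were named from GENCODE.

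The study fitted DESeq2 with sequencing covariates that are not used here. The counts were rounded, genes with at least 10 reads in 7 mice were kept, and genotype was tested with edgeR 4.0.16 (R 4.3.3, TMM, quasi-likelihood F test) with sex and line as terms, or with 4 genotype and line groups and sex. Adjustment was by Benjamini-Hochberg over 17428 genes. DESeq2 1.42.0 and sva 3.50.0 served in alternatives. Correlations used log2 CPM (prior count 2) with sex, line and genotype removed, and two-sided permutation tests with 100000 resamples (numpy 2.4.6, scipy 1.17.1, pandas 2.3.3, Python 3.11.15). Mice are the replicates.

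Named members were Kcng1 and Kcnj14, the highest of each letter, the 5 with the smallest p in each direction of the genotype tests, the 5 of the interaction, 3 each for line and sex, the 8 highest and 4 lowest pairs, the nearest genes to Kcng1, and the members of the marker relations. Further names fill the lists of members that passed and were chosen after their values were seen. The members, the gene lists and the markers were chosen with earlier results of these data known. In simulated counts for the test over both lines (17428 genes) 30 of 100 genes with a log2 difference of 0.5 and 66 of 100 with 1 passed an adjusted p under 0.05, and 3 unchanged genes did. The changed genes were drawn from those with a mean over 1 CPM, and further genes were changed in line 3 only. Counts were drawn independently for each gene, without the co-variation between genes seen here. The recovered numbers may therefore be too high for these data. The depth limits members with few reads, and 23 of the 71 had under 10 reads in some mice. Some genes that this rule names are not reported here.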

Additional observations from a re-analysis of the deposited data

Results flagged for a closer look

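A mouse stood far from the rest of its own group, by a gap test, in 3 of 80 combinations of 20 members and 4 groups, and chance alone flags about 1 in 20. Over all 71 members the number was 17 of 284. Kcng1 was at 45.3 CPM in replicate 5 of the CYFIP1 OE mice of line 1, and the next mouse of that group was at 25.2 CPM. Kcnd2 was at 91.0 CPM in replicate 1 of the CYFIP1 OE mice of line 3, which is the mouse of low connectivity, with the next mouse at 204.0 CPM. Kcng2 was at 0 CPM in replicate 8 of the WT mice of line 1, with the next at 0.864 CPM.

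The genotype effect differed between the lines at an unadjusted p under 0.005 for Kcnj4, by 1.02 on the log2 scale (line 3 minus line 1, adjusted p = 0.534 with edgeR). Over its alternatives other than leaving out 1 mouse the difference ran from 0.41 to 1.10, each with an unadjusted p under 0.05.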

How the results depend on the processing

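Counts of members at p under 0.05 moved most, and each is given with the share of members, then of all genes. Over both lines (3, 4.23% and 4.30%) it was 7 with 5 surrogate variables (9.86% and 5.62%), 6 with the striatal and oligodendrocyte scores (8.45% and 4.89%) and 1 of 48 among genes with 10 reads in every mouse (2.08% and 5.04%). In line 1 (4, 5.63% and 3.96%) it was 9 without the filter on low counts (12.7% and 6.71%), 7 with each line fitted alone (9.86% and 5.58%) and 9 with the choroid plexus score, added after seeing the data (12.7% and 5.17%). In line 3 (7, 9.86% and 7.95%) it was 11 without the filter (15.5% and 9.36%), 12 without the mouse of low connectivity (16.9% and 9.05%) and 2 with the name prefix as a term, added after seeing the data (2.82% and 5.44%). The interaction (14, 19.7% and 8.10%) gave 4 with 5 surrogate variables (5.63% and 3.57%) and 5 without the mice aged 77 days (7.04% and 5.38%), and, in alternatives added after seeing the data, 4 with the striatal and oligodendrocyte scores (5.63% and 5.24%) and 6 with the BLA score (8.45% and 6.29%). By sex (4, 5.63% and 4.63%) it was 2 with surrogate variables (2.82% and 4.67%). The 238 pairs with r of at least 0.5 became 78 once both scores were removed, and the share over all gene pairs after that removal is not given. With 5 surrogate variables Kcnip2 and Kcnd3 reversed, to -0.0761 and 0.0805 in line 3, and Kcnd3 to 0.11 in the interaction, and the cause was not tested.

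Leaving out 1 mouse gave 2 to 5 members over both lines, 3 to 11 in line 1, 1 to 12 in line 3 and 9 to 17 in the interaction. Over both lines the count was 5 without WT replicate 2 of line 3. In line 1 it was 8, 7 and 11 without CYFIP1 OE replicates 2, 6 and 7. In line 3 it was 12, 3 and 1 without CYFIP1 OE replicates 1, 3 and 7, and 4 and 11 without WT replicates 1 and 3. The interaction count was 9 without CYFIP1 OE replicate 5 of line 1. Except for the mouse of low connectivity, the share of all genes in these fits is not given here. Whether members moved more than other genes when 1 mouse was left out can therefore not be read from these counts. Kcng1 kept its direction and passed in all of these over both lines, at 0.50 to 0.73, and Kcne2 lost its call without WT replicate 6 of line 1 or WT replicate 1 of line 3. Of the other alternatives for single members and pairs 244 gave the same call, 48 lost it, 6 gained one, 12 moved and 3 reversed. These cover Kcng1, Kcnj14 and members called at p under 0.05, so that Kcnc2 in line 3, not called at -0.52 and at 0.23 with 5 surrogate variables, is not among them. No paired analysis was possible because the replicate numbers were given in order of the records and pair no mice. The name prefix could be a term, with 2 members over both lines among 18 mice (2.82% and 4.48%) and the 2 in line 3 given above, but not in line 1, where 2 mice only share a prefix across genotypes.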

Other observations

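The last 1000 bases of 10 members overlap other genes, and Kcnk4 with Catsperz is the only such case on the same strand. Mcrs1, on the strand opposite to Kcnh3, had 5752 reads over all mice, 5730480H06Rik opposite to Kcnip4 had 2560, Hhat opposite to Kcnh1 had 1897 and Gca opposite to Kcnh7 had 1069. Kcnh3, Kcnip4, Kcnh1 and Kcnh7 are uncertain to that extent, as the strand setting of the counting is not given in the sources used here.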
